A study of Rattus norvegicus with 8 samples.

Results

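The gap in expression between the ductus arteriosus (DA) and the aorta was compared between Brown-Norway (BN) and Fischer344 (F344) newborn rats. For each gene, the DA minus aorta difference in F344 was subtracted from the DA minus aorta difference in BN, and this interaction is above 0 where the DA of BN is the higher of the pair relative to its own aorta. Every gene with a single symbol on the array was eligible, with the probe set of highest mean standing for the gene. Olfactory, vomeronasal, taste and trace amine receptor genes were set aside, which left 13223 of 14506 genes. RNA was taken 1 hour after birth at full term from 4 groups, the F344 DA, the F344 aorta, the BN DA and the BN aorta, each measured on 2 Affymetrix Rat Gene 1.0 ST arrays from 150 ng of total RNA. No treatment was given in any group, and both strains are inbred. Each RNA came from pooled tissues, and nothing in the labels says that replicates 1 and 2 of a group came from different litters or animals, so p-values measure the spread between these arrays only.

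The ductus arteriosus is a vessel of the fetus that carries blood from the pulmonary artery into the aorta, past the unexpanded lung. After birth, rising oxygen shuts potassium channels of its smooth muscle, falling prostaglandin E2 withdraws the relaxing signal of the receptor EP4, and the muscle contracts before the lumen is sealed by a thickened intima. The BN strain is known as a rat model in which the ductus tends to close late or not at all, so a trait that sets the ductus of F344 apart from its aorta can be weaker, absent or stronger in BN.

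Smooth muscle actin and elastin were high in every group. Smooth muscle actin Acta2 read from 13.64 to 13.82 on the log2 scale over the 8 arrays, and elastin Eln read from 13.32 to 13.80. The transcription factor Tfap2b, a known ductus gene, separated every DA array (9.25 to 9.92) from every aorta array (5.51 to 6.75). Array medians lay between 6.96 and 7.05. The 2 BN DA arrays differed more from each other than any other pair. The standard deviation (SD) of their gene-by-gene difference was 0.339, against 0.206 in the F344 DA, 0.183 in the F344 aorta and 0.251 in the BN aorta. They were apart by 1 log2 unit or more in 177 genes, against 11 to 16 genes in the other groups. Ribosomal protein genes averaged 11.20 and 10.51 on BN DA replicates 1 and 2. In the BN aorta they averaged 11.02 and 10.66, and on the F344 arrays 10.90 to 10.96. BN DA replicate 1 was high for thymocyte genes, with Rag1 at 8.20 and every other array between 5.58 and 5.95. BN DA replicate 2 was high for some cardiac genes, with Tnnt2 at 9.24 and every other array between 6.77 and 7.47. The mean over all 23 cardiomyocyte genes tested was 6.90 there, 6.78 on BN DA replicate 1 and 6.45 to 6.71 elsewhere. Where the printed interaction of a gene moved by over 1.5 times or changed sign without either BN DA array, its values without them follow. Robo4 and Plk1 are excepted, since they are named only as members of a list. The median over the chemosensory receptor genes, which should be silent in these vessels, was 5.97 and 6.04 on the F344 DA arrays, above the 4.93 to 5.61 of the other 6, and its part in the interactions was not tested.

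No gene passed the interaction test. With limma and Benjamini-Hochberg adjustment over all 14506 genes, 0 genes fell under an adjusted p of 0.05 (0% called) and the smallest adjusted p was 0.107. At an unadjusted p under 0.05, 1009 of the 13223 genes differed (7.63%), 675 above 0 (5.1%) and 334 below (2.53%). The same fit called 1210 genes in F344 (9.15%), of which 468 were higher (3.54%) and 742 lower (5.61%) in the DA. In BN it called 207 genes (1.57%), 88 higher (0.666%) and 119 lower (0.9%). Neither count is fixed. Without F344 DA replicate 1 or 2 the F344 count was 479 or 291, without F344 aorta replicate 1 or 2 it was 308 or 373, and without either BN DA array it was 1893. The BN count was 326 or 421 without BN DA replicate 1 or 2, 16 or 87 without BN aorta replicate 1 or 2, 101 when a F344 DA array was left out and 103 when a F344 aorta array was. The larger count in F344 is therefore no test of a strain difference, and single interactions below are given with their standard error (SE).

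The sign of the small interactions depended on the brightness of the gene. In the dimmest of 4 equal groups by mean level the median interaction was -0.14, with 41 genes above 0 and 205 below at an unadjusted p under 0.05. In the brightest group the median was 0.11, with 184 above and 26 below. Over all genes described the median was 0.04 and 66.9% of the genes at that p were above 0. Centring each array on the brighter genes moved the median to -0.11 and the share to 23.2%. It also moved the share of F344 calls that were higher in the DA from 38.7% to 79.6%, and the share in BN from 42.5% to 56.9%. Directions are therefore given only for interactions that are large beside this shift of 0.15 or that kept their sign under all 18 alternative settings.

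Among the larger interactions, most were tissue differences of F344 that were smaller or of opposite sign in BN. An unadjusted p under 0.05, an interaction of at least 2-fold and DA minus aorta array differences that did not overlap between strains were met together by 61 genes (0.461%), 52 above 0 (0.393%) and 9 below (0.0681%). In 50 of the 61 (82%) the tissue difference was the smaller in BN, against 66.4% of all genes described, and in 31 (50.8%) it had the opposite sign, against 34%. Most of them, 45 genes, were lower in the DA than in the aorta of F344 and less so in BN. Another 5 were higher in the F344 DA and less so in BN, 7 were higher in the BN DA by more than in F344, and 4 were lower in the BN DA by more than in F344. The F344 DA was the group that stood apart in 43 of the 61 (70.5%), against 46.3% of all genes described. The 61 were chosen for a large interaction of the same 2 tissue differences, and opposite signs by themselves enlarge it. These shares therefore describe the chosen genes and are no test. The 22 genes named from these by size kept the sign of their interaction under all 18 alternatives. Since their array differences were chosen not to overlap, leaving out an array could not change that sign. The kept sign is therefore no separate support for these genes.

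**Figure D1:**
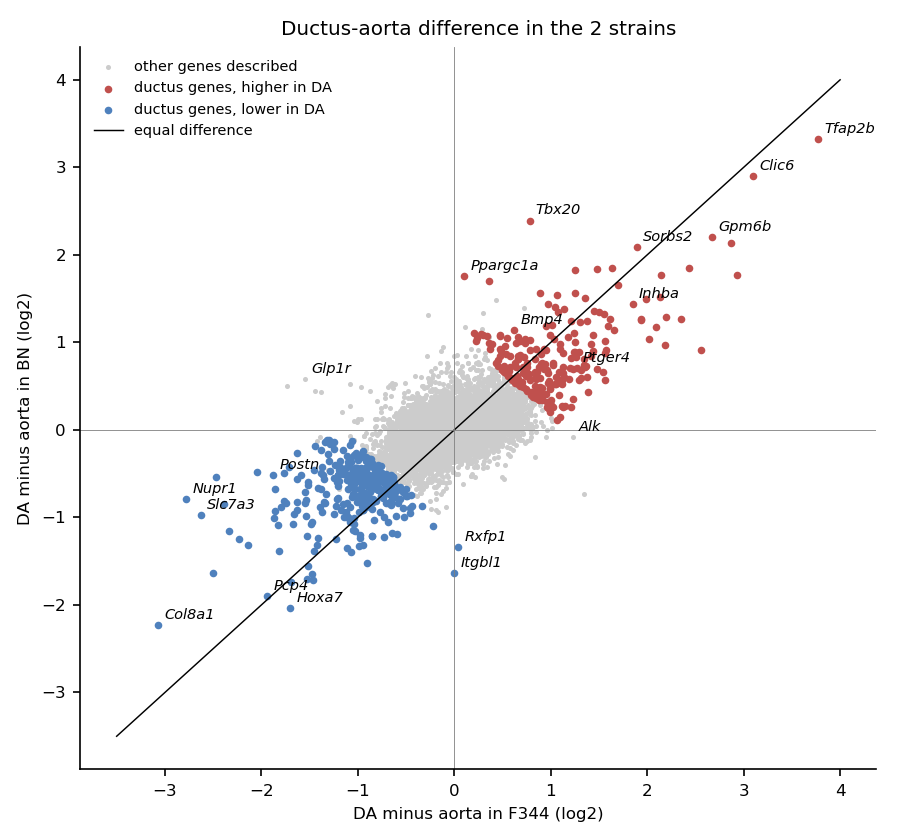
Each point is a gene, with its DA minus aorta difference in F344 on the horizontal axis and in BN on the vertical axis, both in log2 units; red and blue points are the 218 ductus genes higher and the 319 lower in the DA on average, and the line marks equal differences. Tfap2b and Clic6 lie far out near the line, Ppargc1a and Tbx20 lie above it, and Itgbl1 and Rxfp1 lie near 0 on the F344 axis.

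To see which ductus traits BN shared, ductus genes were taken from the difference averaged over both strains, which does not depend on the interaction. An adjusted p under 0.05 and an average difference of at least 1.5-fold were met by 537 genes, 218 higher and 319 lower in the DA. The adjusted p alone called 1532 genes (11.6%). A large average needs a difference in the same direction in both strains or a very large one in 1 of them, so this choice itself favours genes of equal sign and leaves few that are near 0 in either strain. The difference was smaller in BN in 400 of the 537 (74.5%), in 149 of the 218 that were higher (68.3%) and in 251 of the 319 that were lower (78.7%). Over all genes described that share was 66.4%, close to the share of the higher genes. Without BN DA replicate 1 the share over the ductus genes was 68.4%, without BN DA replicate 2 it was 58.9%, and without BN aorta replicate 2 it was 66.5%. Higher genes had a median difference of 0.96 in F344 and 0.76 in BN, and lower genes one of -0.97 in F344 and -0.65 in BN. The median ratio of the BN to the F344 difference was 0.78 among higher genes and 0.70 among lower genes. Over both it was 0.727, with 0.765 and 0.858 without BN DA replicates 1 and 2. At an unadjusted interaction p under 0.05 in limma, 133 ductus genes were weaker in BN and 19 stronger. Of all 1009 genes described at that p, 812 (80.5%) had the smaller difference in BN, so this lean is not particular to ductus genes. The averaged and the interaction test also share the spread estimate of each gene, so their calls are not independent. The ratio of a single gene is imprecise, since the median SE of the interaction was 0.24.

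Sorted by that ratio, the ductus genes fell into these classes, whose outer members are few by the choice described above. The BN difference lay between 2/3 and 1.5 times the F344 difference in 255 genes (47.5%), and between 0.25 and 2/3 of it in 214 (39.9%). It was under 0.25 of it in 23 genes (4.28%). These 23 comprised 16 genes low in the F344 ductus and 7 genes high there. In the other direction, 37 genes (6.89%) had a BN difference 1.5 to 4 times that of F344, and 8 genes (1.49%) were over 4 times or of opposite sign in F344.

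**Figure D2:**
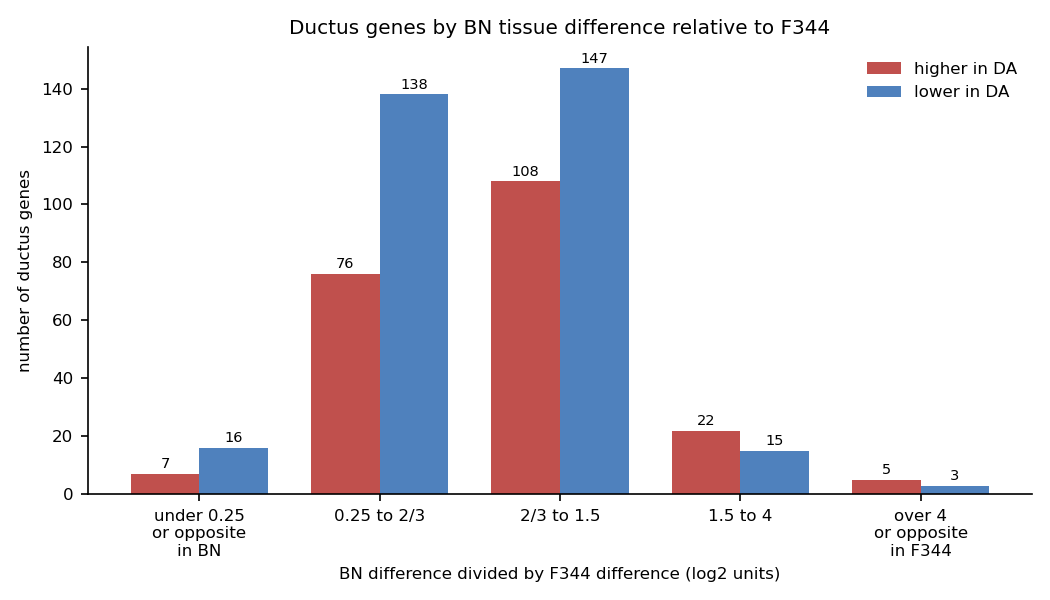
Bars give the number of ductus genes, on an axis that starts at 0, in 5 classes of the BN tissue difference divided by the F344 tissue difference, in red for the 218 genes higher in the DA and in blue for the 319 lower. The class from 2/3 to 1.5 holds 108 and 147 genes, the class from 0.25 to 2/3 holds 76 and 138, and the outer classes hold between 3 and 22.

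The leading ductus genes were high in both strains. The 8 genes with the largest average rise, Tfap2b, Clic6, Mab21l2, Gpm6b, Epyc, Sorbs2, Lypd6 and Tgfbi, passed the test in each strain. Tfap2b, whose human counterpart is mutated in a familial form of patent ductus, read 9.90 and 9.92 in the F344 DA, 6.06 and 6.21 in the F344 aorta, 9.66 and 9.25 in the BN DA and 5.51 and 6.75 in the BN aorta. It rose by 3.77 in F344 and 3.32 in BN, with an interaction of -0.45 ± 0.46 (SE) and an adjusted p of 0.810 in limma. That interaction was -0.66 without BN DA replicate 1 and -0.24 without replicate 2. The DA and aorta arrays of Tfap2b did not overlap in either strain, and the spread was widest in the BN aorta. The chloride channel gene Clic6 rose by 3.10 and 2.90, with an interaction of -0.20 ± 0.32, or -0.38 and -0.02 without BN DA replicates 1 and 2. For the cytoskeletal adaptor Sorbs2 the rise was 1.89 in F344 and 2.09 in BN, an interaction of 0.20 ± 0.17. Tfap2a and Tbx3, transcription factors of the neural crest and outflow region, also rose in both strains, by 0.97 and 1.44 for Tfap2a and by 1.10 and 0.93 for Tbx3.

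Secreted factors and matrix genes typical of the ductus were high in both strains, some less so in BN. Epyc, a small proteoglycan, read 10.64 and 10.68 in the F344 DA, 8.20 and 8.26 in the F344 aorta, 9.69 and 9.46 in the BN DA, and 7.62 and 7.83 in the BN aorta. Its rise was 2.43 in F344 and 1.85 in BN, with an interaction of -0.58 ± 0.19 and an unadjusted p of 0.0133. No BN DA array of Epyc reached the F344 DA, and no BN aorta array reached the F344 aorta. Inhba, the activin A subunit, rose by 1.85 and 1.44 with an interaction of -0.42 ± 0.20, or -0.57 and -0.27 without BN DA replicates 1 and 2. The growth factor Bmp4 went the other way, rising by 0.62 in F344 and 1.14 in BN with an interaction of 0.52 ± 0.18. The bombesin receptor Grpr rose by 1.64 in F344 and 1.85 in BN.

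Genes low in the ductus of both strains formed the matching set. Of the 8 with the largest average fall, Col8a1, Cdh8, Pcp4, Hoxa7, Spp1, Map2 and Slc7a3 passed the test in each strain and Nupr1 passed in F344 only. Col8a1, a short-chain collagen of vessel walls, fell by 3.07 in F344 and by 2.23 in BN. Hoxa7, a positional identity gene, read 6.93 and 7.04 in the F344 DA, 8.69 and 8.68 in the F344 aorta, 6.61 and 6.76 in the BN DA, and 8.80 and 8.64 in the BN aorta, so that the DA was low by the same order in both strains. It fell by 1.70 in F344 and by 2.04 in BN, with an interaction of -0.34 ± 0.18. Pcp4, a calmodulin-binding peptide gene, fell by 1.94 and 1.90 with an interaction of 0.04 ± 0.33, or -0.31 and 0.39 without BN DA replicates 1 and 2. Errors of this size leave room for strain differences in these genes. Spp1 (osteopontin) and Map2 (a microtubule protein) were weaker in BN, with differences of -2.34 against -1.15 and of -2.23 against -1.25, and interactions of 1.19 ± 0.29 and 0.98 ± 0.19.

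Dilator genes of the ductus were among the genes higher in the DA on average. Ptger4 encodes EP4, the prostaglandin E2 receptor that keeps the fetal ductus open. It read 10.75 and 10.53 in the F344 DA, 9.42 and 9.33 in the F344 aorta, 9.60 and 8.82 in the BN DA, and 8.83 and 8.16 in the BN aorta. The F344 DA arrays lay above all others, whereas BN DA replicate 2 lay just below BN aorta replicate 1. Ptger4 rose 2.41-fold in F344 (adjusted p = 0.0146 in limma), and its BN difference of 1.64-fold did not pass (adjusted p = 0.267). The interaction of -0.55 ± 0.38 had an adjusted p of 0.689 and was -0.95 without BN DA replicate 1 and -0.16 without replicate 2. Within the DA itself, Ptger4 was lower in BN than in F344 by 1.43 (adjusted p = 0.0257). The aorta had the same direction, with BN minus F344 at -0.88 (adjusted p = 0.574), so the strain gap was not confined to the DA.

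The subunits of the vascular ATP-sensitive potassium channel were also highest in the F344 DA. Abcc9 encodes its sulfonylurea receptor and read 11.08 and 11.04 in the F344 DA, 9.71 and 9.66 in the F344 aorta, 10.48 and 9.79 in the BN DA, and 9.37 and 9.43 in the BN aorta. Abcc9 rose by 1.37 in F344 (adjusted p = 0.00288 in limma), against a BN difference of 0.73 (adjusted p = 0.111), and the interaction was -0.64 ± 0.28 (unadjusted p = 0.0472). Without BN DA replicate 1 it was -0.99 and without replicate 2 it was -0.29. Kcnj8, the pore subunit, had differences of 0.91 and 0.41, with an interaction of -0.51 ± 0.26. In the DA both subunits were lower in BN, Abcc9 by 0.93 (adjusted p = 0.0343) and Kcnj8 by 0.83 (adjusted p = 0.0368). For the aorta, BN minus F344 was -0.28 for Abcc9 and -0.32 for Kcnj8, neither of them called.

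Kcna5 and Kcnma1, potassium channel genes that fell in the F344 ductus, had smaller differences in BN. Kcna5 encodes an oxygen-sensitive voltage-gated channel of smooth muscle. It read 7.74 and 7.76 in the F344 DA, 9.63 and 9.61 in the F344 aorta, 8.52 and 9.28 in the BN DA, and 9.62 and 9.54 in the BN aorta. The aortas were alike, and the BN DA lay between them and the F344 DA. Kcna5 fell by 1.86 in F344, its BN difference was -0.68 (adjusted p = 0.167 in limma), and the interaction was 1.18 ± 0.30 (unadjusted p = 0.00311), or 1.57 without BN DA replicate 1 and 0.80 without replicate 2. Kcnma1, the pore of the calcium-activated BK channel, fell by 1.24 in F344 with a BN difference of -0.40 and an interaction of 0.84 ± 0.24. Its accessory subunit Kcnmb1 rose in both strains, by 0.55 in F344 and 1.05 in BN. It was higher in BN than in F344 by 1.18 in the DA (adjusted p = 0.00818) and by 0.68 in the aorta (adjusted p = 0.252). Of the 35 oxygen-response channel genes tested, 5 rose and 7 fell in F344, and 2 rose and 2 fell in BN. Their median interaction was 0.10, with 5 above and 1 below 0 at an unadjusted p under 0.05. Over all genes described, 3.54% rose and 5.61% fell in F344, and 0.666% rose and 0.9% fell in BN. At an unadjusted interaction p under 0.05, 5.1% lay above and 2.53% below 0. Each list count below is to be read beside these shares.

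Several genes that were high in the F344 ductus had a smaller difference in BN, which was near 0 in some of them. Alk, a receptor tyrosine kinase, read 7.81 and 8.05 in the F344 DA, 6.61 and 6.78 in the F344 aorta, 6.52 and 6.99 in the BN DA, and 6.69 and 6.99 in the BN aorta. Only the F344 DA stood apart for Alk. It rose 2.35-fold in F344 (adjusted p = 0.00332 in limma), with a BN difference of -0.08 and an interaction of -1.32 ± 0.26 (adjusted p = 0.253). Mmp2, a matrix metalloproteinase, rose by 0.58 in F344 with a BN difference of -0.30 and an interaction of -0.88 ± 0.20. Adm, the vasodilator adrenomedullin, rose by 0.70 in F344 with a BN difference of -0.11 and an interaction of -0.81 ± 0.25. The matrix protein Tnn (tenascin N) rose by 2.35 in F344 with a BN difference of 1.27, and its interaction of -1.08 ± 0.42 was -1.67 without BN DA replicate 1 and -0.48 without replicate 2. The fibroblast growth factor receptor Fgfr2 rose by 1.05 in F344 with a BN difference of 0.53 and an interaction of -0.53 ± 0.17. The 7 high genes with a ratio under 0.25 were Cntnap5c, Mfsd2a, Cyp4a3, Oxgr1, Mtarc1, Scgb2b2 and Cmklr2, named here after their values were seen. Of these, Mfsd2a, a lipid transporter, read 8.61 and 8.47 in the F344 DA and between 6.98 and 7.59 elsewhere.

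Most of the large interactions were genes that fell in the F344 ductus. Nupr1, a stress-induced nuclear protein, read 7.09 and 7.02 in the F344 DA, 9.93 and 9.74 in the F344 aorta, 10.11 and 9.77 in the BN DA, and 11.02 and 10.44 in the BN aorta. The F344 DA was low, and the other 3 groups lay between 9.74 and 11.02. Nupr1 fell by 2.78 in F344 (6.88-fold, adjusted p = 0.000252 in limma), the BN difference was -0.79 (adjusted p = 0.0906), and the interaction was 1.99 ± 0.28 (unadjusted p = 5.17e-05, adjusted p = 0.107). Postn, the matricellular protein periostin, read 10.61 and 10.43 in the F344 DA, 12.41 and 12.40 in the F344 aorta, 12.10 and 12.25 in the BN DA, and 12.71 and 12.67 in the BN aorta. It fell by 1.88 in F344, with a BN difference of -0.52 (adjusted p = 0.0814) and an interaction of 1.37 ± 0.18. Slc7a3, a cationic amino acid transporter, fell in both strains, by 2.63 in F344 and by 0.97 in BN, with an interaction of 1.66 ± 0.26. The adventitial fibroblast markers had median differences of -0.63 in F344 and -0.19 in BN, and their part in the values of Nupr1 and Postn was not tested.

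In several genes the BN difference had the opposite sign, although it did not pass the test in BN. Glp1r, the receptor of glucagon-like peptide 1, read 7.67 and 7.80 in the F344 DA, 9.16 and 9.41 in the F344 aorta, 9.61 and 10.43 in the BN DA, and 9.40 and 9.47 in the BN aorta. It fell by 1.55 in F344 (adjusted p = 0.00334 in limma), against a BN difference of 0.58 (adjusted p = 0.299) and an interaction of 2.14 ± 0.33. Sphkap, an anchoring protein of protein kinase A, had the smallest interaction p of all genes described. It read 7.19 and 7.07 in the F344 DA, 8.61 and 8.52 in the F344 aorta, 8.70 and 8.89 in the BN DA, and 8.53 and 8.15 in the BN aorta. Sphkap fell by 1.44 in F344, the BN difference was 0.45 (adjusted p = 0.204), and the interaction was 1.89 ± 0.22 (unadjusted p = 9.01e-06). Npr3, the natriuretic peptide clearance receptor, read 8.38 and 8.49 in the F344 DA, 9.31 and 9.50 in the F344 aorta, 8.70 and 8.73 in the BN DA, and 8.39 and 8.06 in the BN aorta. Here the aortas differed, with BN below F344 by 1.18 (adjusted p = 0.0188), and the interaction was 1.46 ± 0.20. Over all genes, 32 had an unadjusted p under 0.05 in both strains with opposite signs, against 854 with the same sign.

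The promoters of Nupr1 and Npr3 above and of Ppargc1a below are shown for sequence context, although no interaction passed the adjusted test. Each is the 250 bases before the annotated start in the RefSeq assembly GRCr8, which is itself of the BN strain, printed 5′ to 3′ on the strand of the gene with the matched motif in capitals. Nupr1 lies at chr1:190645902-190646151 on the minus strand, and the capitals mark the reverse complement of the stress response element TGATGNAA bound by ATF4 and its partners, from -55 to -48. For Ppargc1a, at chr14:63634058-63634307 on the plus strand, they mark the cyclic AMP response element TGACGTCA from -181 to -174. For Npr3, at chr2:62658766-62659015 on the minus strand, they mark the AP-2 motif GCCNNNGGC from -19 to -11, a motif of the family that holds Tfap2b.
Nupr1: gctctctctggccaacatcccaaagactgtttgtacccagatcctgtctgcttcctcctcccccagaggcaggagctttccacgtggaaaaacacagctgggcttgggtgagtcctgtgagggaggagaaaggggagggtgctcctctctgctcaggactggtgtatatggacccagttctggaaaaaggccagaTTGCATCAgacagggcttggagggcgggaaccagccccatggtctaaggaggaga
Ppargc1a: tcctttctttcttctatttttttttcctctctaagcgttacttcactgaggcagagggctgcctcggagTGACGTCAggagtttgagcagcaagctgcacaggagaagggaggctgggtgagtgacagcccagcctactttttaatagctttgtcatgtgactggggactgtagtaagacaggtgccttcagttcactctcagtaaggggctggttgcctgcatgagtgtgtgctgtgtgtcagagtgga
Npr3: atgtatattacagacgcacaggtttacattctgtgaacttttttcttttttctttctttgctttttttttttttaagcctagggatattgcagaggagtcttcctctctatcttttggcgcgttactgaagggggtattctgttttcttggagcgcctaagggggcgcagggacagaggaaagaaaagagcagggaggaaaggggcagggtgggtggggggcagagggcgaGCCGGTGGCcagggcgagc
Both strands were searched, and the last 2 motifs read the same on either strand. Of 10853 genes described that had a promoter, 2.24% held the ATF4 element, 2.52% the cyclic AMP element and 19.0% the AP-2 motif in this window. Among ductus genes with a promoter, the AP-2 motif was found in 29 of 171 higher genes (17.0%) and in 57 of 245 lower genes (23.3%). A match is a run of letters and no measure of binding.

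**Figure D3:**
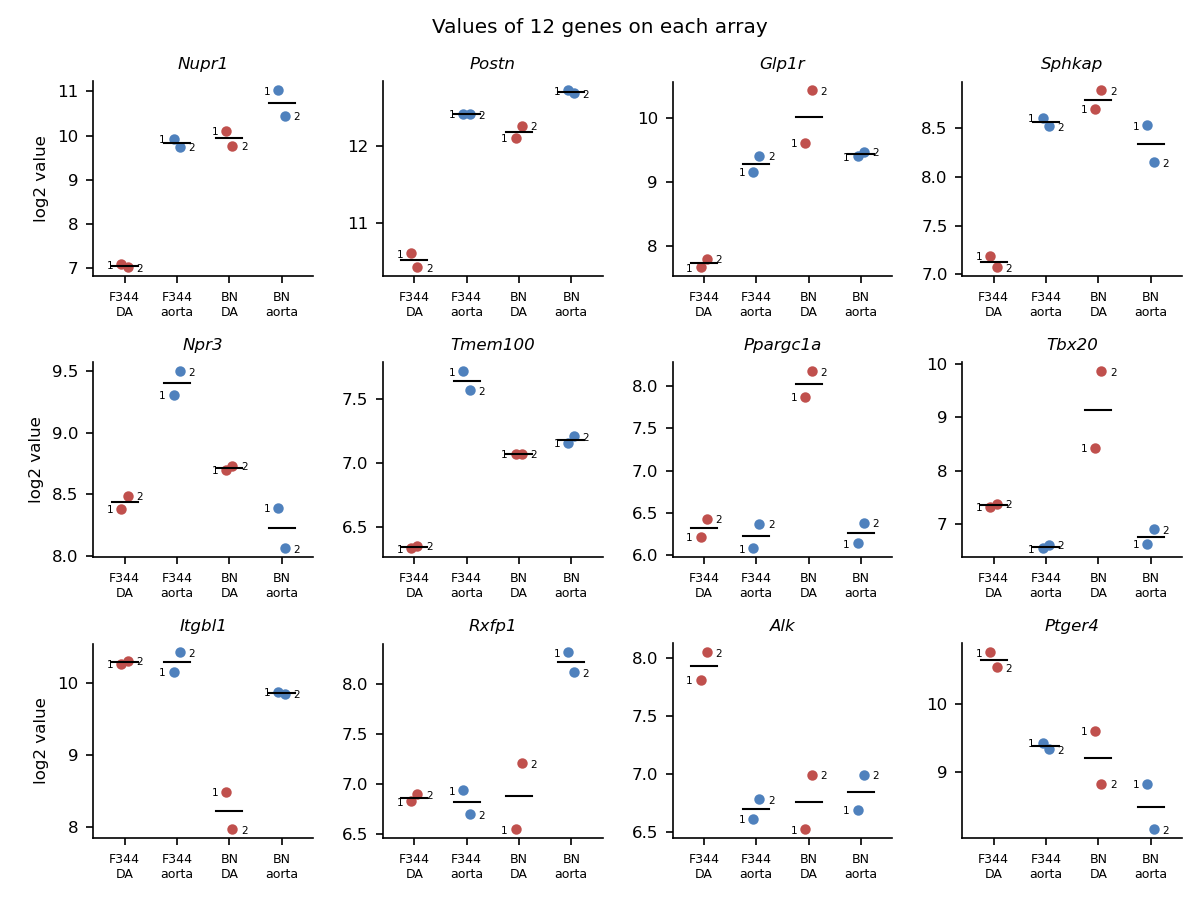
Each panel gives 1 gene, with the log2 value of every array as a point labelled by replicate number, DA in red and aorta in blue, and a line at the mean of the 2 arrays; each panel has its own log2 axis, which does not start at 0. In Nupr1, Postn, Glp1r, Sphkap and Tmem100 the F344 DA is the low group, in Ppargc1a and Tbx20 the BN DA is high, in Itgbl1 the BN DA is low, and in Rxfp1 the BN aorta is high.

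The genes that were low in the F344 ductus and nearly level in BN included several of vasoactive peptide signalling. Ace, the angiotensin-converting enzyme, fell by 1.29 in F344 with a BN difference of -0.16 and an interaction of 1.13 ± 0.28. Calcrl and Ramp1, which together form the receptor of calcitonin gene-related peptide, fell in F344 by 1.38 and 0.70, with BN differences of -0.23 and -0.14 and interactions of 1.15 ± 0.36 and 0.57 ± 0.19. The Calcrl interaction was 0.69 without BN DA replicate 1 and 1.62 without replicate 2. Corin, the protease that activates atrial natriuretic peptide, fell by 2.04 in F344 with a BN difference of -0.48 and an interaction of 1.56 ± 0.38. It read 9.43 on BN DA replicate 1 and 10.47 on replicate 2, and its interaction without them was 2.08 and 1.03. Of the 49 vasoactive peptide and receptor genes tested, 5 rose and 10 fell in F344, and 1 rose and 3 fell in BN. Their median interaction was -0.13, so no common direction ran through the list, whose members at an unadjusted p under 0.05 were 5 above and 4 below 0.

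Some genes of bone morphogenetic protein (BMP) signalling, in which Bmp4 is a ligand, fell in F344 with no call in BN. Tmem100, a membrane protein induced by BMP in endothelium, read 6.33 and 6.35 in the F344 DA, 7.72 and 7.57 in the F344 aorta, 7.07 and 7.07 in the BN DA, and 7.16 and 7.21 in the BN aorta. It fell by 1.30 in F344 (adjusted p = 0.000575 in limma), with a BN difference of -0.11 and an interaction of 1.19 ± 0.17. The receptor Bmpr1b fell by 1.35 in F344 with a BN difference of -0.56, and the inhibitory Smad6 fell by 0.84 with a BN difference of -0.16. Smad9 fell by 0.75 in F344 with a BN difference of -0.19. Their interactions were 0.79 ± 0.19 for Bmpr1b, 0.68 ± 0.21 for Smad6 and 0.57 ± 0.19 for Smad9. Of the 36 TGF-beta, activin and BMP genes tested, 3 rose and 7 fell in F344, 2 rose and 1 fell in BN, and the median interaction was 0.09. The mean of the endothelial marker list was also lowest in the F344 DA, at 8.43 and 8.36 against 8.68 to 8.91 on the other arrays, and its part in the values of Tmem100, Smad6, Ace and Calcrl was not tested. Smad9 and Ramp1 are named because they belong with the genes beside them, after their values were seen.

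Other genes of the F344-low class covered muscle, stress and surface proteins. Casq2, a calcium-storing protein of the sarcoplasmic reticulum, fell by 1.76 in F344 with a BN difference of -0.49 and an interaction of 1.28 ± 0.36, or 1.76 without BN DA replicate 1 and 0.79 without replicate 2. Cldn1, a tight junction protein, fell by 2.39 in F344 with a BN difference of -0.85 and an interaction of 1.55 ± 0.27. The F344 aorta was the group apart for Cldn1, with BN minus F344 at -0.92 in the aorta and 0.63 in the DA. Tppp3, a tubulin-binding protein, fell by 1.44 in F344 with a BN difference of -0.18 and an interaction of 1.26 ± 0.19. Here too the aortas differed more, with BN minus F344 at -1 in the aorta (adjusted p = 0.0277 in limma) and 0.26 in the DA. Pkhd1l1 fell by 1.38 with a BN difference of 0.43 and an interaction of 1.81 ± 0.35. The sodium channel subunit Scn3b and the epithelial factor Grhl3 depended on 1 array each time. Scn3b read 8.04 and 9.98 in the BN DA and Grhl3 8.29 and 9.89, and their interactions of 2.23 and 1.92 were 3.20 and 2.72 without BN DA replicate 1 and 1.26 and 1.12 without replicate 2.

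Other traits were called in BN and not in F344. Ppargc1a encodes PGC-1alpha, a coactivator that drives mitochondrial genes. It read 6.22 and 6.43 in the F344 DA, 6.08 and 6.37 in the F344 aorta, 7.87 and 8.17 in the BN DA, and 6.14 and 6.38 in the BN aorta. Only the BN DA was high for Ppargc1a. It rose 3.39-fold in BN (adjusted p = 0.00248 in limma), against a F344 difference of 0.10 and an interaction of 1.66 ± 0.23 (unadjusted p = 4.89e-05, adjusted p = 0.107). Of the 33 mitochondrial and fatty acid oxidation genes tested, which include Ppargc1a itself, 1 rose and 0 fell in BN, 0 rose and 1 fell in F344, and the median interaction was 0.05. Other genes of that list therefore gave no call in BN at an adjusted p under 0.05.

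Some traits seen in BN rested on the gap between its DA arrays. Tbx20, a cardiac and outflow transcription factor, read 7.32 and 7.37 in the F344 DA, 6.53 and 6.60 in the F344 aorta, 8.42 and 9.87 in the BN DA, and 6.62 and 6.89 in the BN aorta. It rose by 2.39 in BN (adjusted p = 0.0158 in limma), with a F344 difference of 0.78 (adjusted p = 0.184) and an interaction of 1.61 ± 0.51, which was 2.33 without BN DA replicate 1 and 0.88 without replicate 2. The cardiac genes Tnnt2, Gata4 and Actc1 were highest on that same replicate 2, at 9.24, 8.90 and 9.71, and on BN DA replicate 1 they read 7.47, 6.95 and 7.98. Their part in the Tbx20 value was not tested, although Tbx20 was also above all F344 and aorta arrays on replicate 1. Acan, the cartilage proteoglycan aggrecan, rose by 1.70 in BN with a F344 difference of 0.36, and its interaction of 1.34 ± 0.48 was 2.02 without BN DA replicate 1 and 0.66 without replicate 2.

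Genes that fell in BN with no call in F344 were led by Itgbl1, a secreted integrin-like protein. Itgbl1 read 10.27 and 10.31 in the F344 DA, 10.16 and 10.43 in the F344 aorta, 8.48 and 7.96 in the BN DA, and 9.88 and 9.85 in the BN aorta. It fell 3.13-fold in BN (adjusted p = 0.00393 in limma), against a F344 difference of 0.00 and an interaction of -1.64 ± 0.25 (adjusted p = 0.143). Rxfp1, the relaxin receptor, fell by 1.34 in BN with a F344 difference of 0.04. It read 8.32 and 8.12 in the BN aorta and between 6.55 and 7.21 on the other 6 arrays, so the BN aorta was the group apart in its interaction of -1.39 ± 0.29. In the same way the BN aorta was the low group for Pln (phospholamban), the brake of the sarcoplasmic calcium pump, at 6.37 and 6.40 against 7.15 to 7.41 elsewhere. Pln rose by 0.95 in BN, with a F344 difference of -0.12 and an interaction of 1.06 ± 0.18. Pcolce, an enhancer of collagen processing, fell by 0.62 in BN with a F344 difference of 0.09 and an interaction of -0.71 ± 0.17.

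Among the wall-building lists, collagens were low in the ductus of both strains. Of 21 collagen and collagen-processing genes tested, 8 fell in F344 and 8 in BN (5.61% and 0.9% of all genes described). In either strain 0 rose, and the median difference was -0.40 in F344 and -0.62 in BN. Col3a1 fell by 0.69 in F344 and by 1.05 in BN, and Col11a1 fell by 1.07 and by 1.40. The median interaction of the list was -0.17, against 0.04 for all genes described, with 1 member above and 1 below 0 at an unadjusted p under 0.05. Of 23 elastic fibre genes, 1 rose and 6 fell in F344 and 0 rose and 1 fell in BN, with a median of -0.21 in each strain. Contractile smooth muscle genes, 26 in all, had 5 rises and 1 fall in F344 and 3 rises and 0 falls in BN, with medians of 0.21 and 0.20. Desmin (Des) rose by 1.38 in F344 with a BN difference of 0.60, and the smooth muscle actin Actg2 rose by 1.24 with a BN difference of 1.11.

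The remaining signalling lists moved little between strains. Of 27 prostaglandin genes tested, 1 rose and 3 fell in F344 and 0 rose and 1 fell in BN, with a median interaction of -0.11. Over all genes described, 3.54% rose and 5.61% fell in F344, and 0.666% rose and 0.9% fell in BN. Ptger3, which encodes the receptor EP3, fell in both strains, by 0.90 in F344 and by 1.52 in BN. Of 17 Hox genes, 3 rose and 7 fell in F344 and 0 rose and 4 fell in BN, with a median interaction of -0.08. The 24 outflow and neural crest transcription factors had 4 rises and 0 falls in each strain, with a median interaction of 0.18. The guidance factor Sema3c, on the axon guidance list, rose by 0.62 in BN (adjusted p = 0.0437 in limma) against a F344 difference of -0.41 and an interaction of 1.03 ± 0.18. All 4 of its DA minus aorta array differences were above 0 in BN and below 0 in F344.

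**Figure D4:**
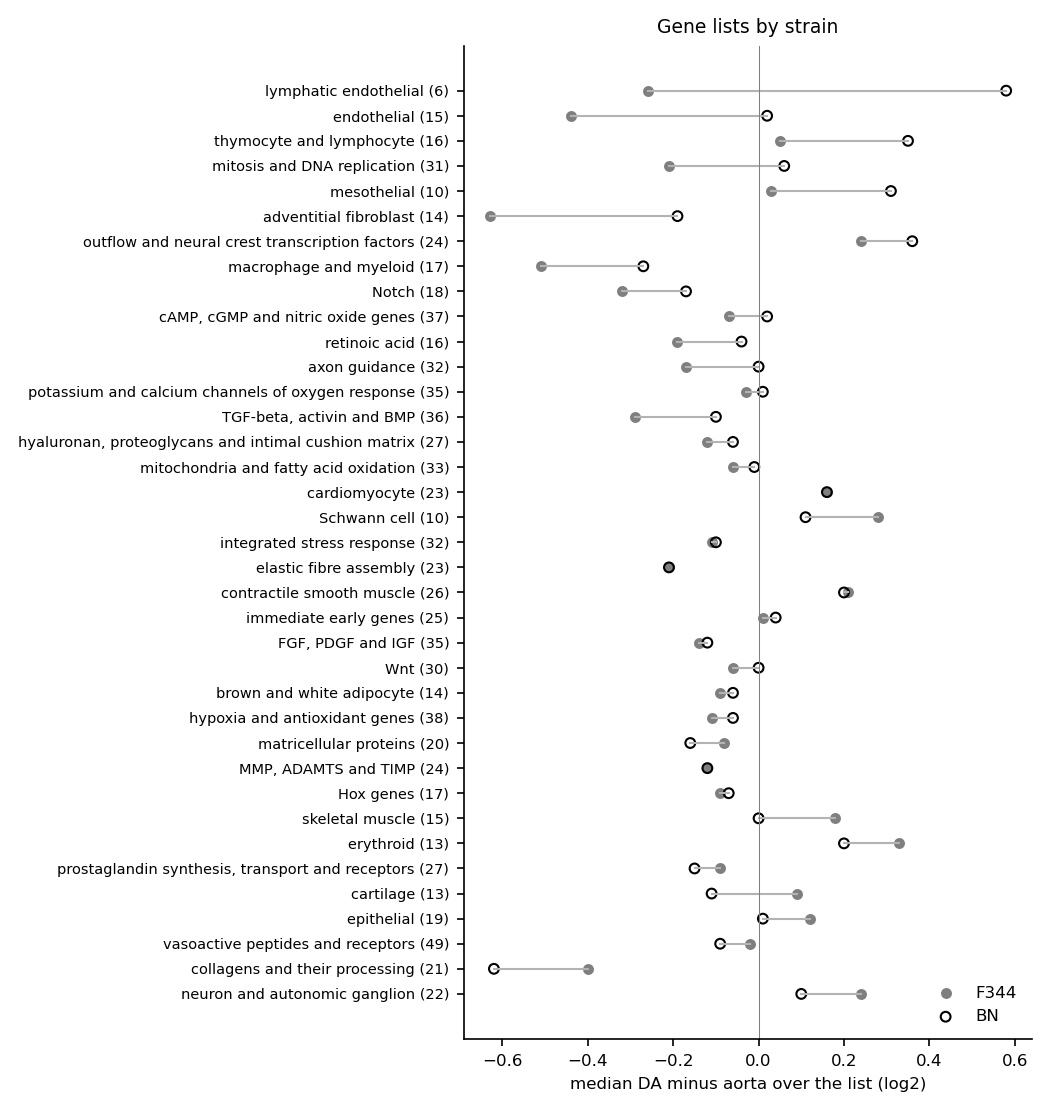
Each line is a gene list with the number of tested genes in parentheses, the horizontal axis is the median DA minus aorta difference over the list in log2 units, filled points are F344 and open points are BN, and lists are ordered by their median interaction. Lymphatic endothelial and endothelial genes show the widest gaps toward BN, and collagens lie furthest to the left in BN.

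Cell type markers differed in how far the strains lay apart. Of 15 endothelial genes tested, 0 rose and 6 fell in F344 (3.54% and 5.61% of all genes described), and 0 were called in BN. The median difference was -0.44 in F344 and 0.02 in BN. The interaction was above 0 in 14 of the 15 (57% of all genes described), also without either BN DA array. Robo4 was the exception at -0.11. At least 13 were above 0 under every alternative that kept the dim genes. The median interaction was 0.46 and ranged from 0.29 to 0.76 over the alternatives. Sox17, an arterial endothelial transcription factor, read 8.28 and 8.39 in the F344 DA, 9.43 and 9.40 in the F344 aorta, 8.83 and 9.09 in the BN DA, and 9.09 and 9.16 in the BN aorta. It fell by 1.08 in F344 (adjusted p = 0.00145 in limma), with a BN difference of -0.17 and an interaction of 0.91 ± 0.19. The receptor Tie1 fell by 0.73 with a BN difference of 0.13, and Sox18 fell by 0.82 with a BN difference of -0.04. In such bulk samples fewer endothelial cells and less RNA per cell cannot be told apart.

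Lymphatic endothelial genes were high in the BN ductus. The mean over the 6 tested genes (Prox1, Lyve1, Pdpn, Flt4, Ccl21 and Reln) was 8.24 on both BN DA arrays, 7.36 and 7.65 in the BN aorta, 6.94 and 7.04 in the F344 DA, and 7.67 and 7.01 in the F344 aorta. All 6 interactions were above 0, with a median of 0.84 that ranged from 0.67 to 1.22 over the alternatives, and 5 had an unadjusted p under 0.05. None of the 6 was called between DA and aorta in either strain, whereas 4 were higher in the DA of BN than in that of F344 at an adjusted p under 0.05 in limma (2.66% of all genes described). Prox1, the factor that sets lymphatic identity, read 5.42 and 5.73 in the F344 DA, 6.08 and 5.54 in the F344 aorta, 6.69 and 6.59 in the BN DA, and 5.87 and 6.23 in the BN aorta. Both BN DA values of Prox1 lay above all others. Lyve1, a hyaluronan receptor, read 9.39 and 10.57 in the BN DA and 8.21 and 8.19 in the F344 DA, and its interaction of 1.61 ± 0.55 was 2.21 without BN DA replicate 1 and 1.02 without replicate 2. For the chemokine Ccl21 the order of the replicates was reversed, with 9.61 and 8.27 in the BN DA and an interaction of 0.91 without replicate 1 and 2.26 without replicate 2.

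Cell division genes showed a small shift over most of the list. Of 31 mitosis and DNA replication genes tested, 30 had an interaction above 0, with a median of 0.28 that ranged from 0.13 to 0.33 over the alternatives, and Plk1 at -0.02 was the exception. Over the alternatives that kept the dim genes, at least 24 of the 31 were above 0. Of all genes described 57% were above 0, and the median was 0.13 and 0.11 in the brighter 2 of the 4 groups by mean level. None was called between DA and aorta in either strain, 8 were above and 0 below 0 at an unadjusted interaction p under 0.05, and 7 were higher in the DA of BN than in that of F344 at an adjusted p under 0.05 in limma. The mean of the list was 8.43 and 8.33 in the F344 DA, 8.56 and 8.62 in the F344 aorta, 8.71 and 8.75 in the BN DA, and 8.60 and 8.70 in the BN aorta. Hells, a chromatin remodeller of replicating cells, had differences of -0.31 in F344 and 0.48 in BN, with an interaction of 0.80 ± 0.17. For the spindle protein Nusap1 the differences were -0.33 and 0.20, with an interaction of 0.53 ± 0.16.

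Markers of other cells in the dissected tissue were uneven. Adventitial fibroblast genes had 1 rise and 7 falls among 14 in F344 and 0 rises and 4 falls in BN, with medians of -0.63 and -0.19. Pi16 fell by 1.34 in F344 with a BN difference of -0.14, and the hedgehog target Gli1 fell in both, by 1.63 and by 0.82. Macrophage genes had 0 rises and 5 falls among 17 in F344 and 0 rises and 1 fall in BN. The lysosomal protease Ctss fell in both strains, by 0.59 in F344 and by 1.19 in BN. The thymocyte list, of 16 genes, had a median interaction of 0.31 that was -0.10 without BN DA replicate 1 and 0.70 without replicate 2, and its mean was 6.75 on BN DA replicate 1 against 5.90 to 6.05 on the other arrays. The 13 erythroid genes had a median interaction of -0.10, which was -0.49 without BN DA replicate 1 and 0.23 without replicate 2.

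**Figure D5:**
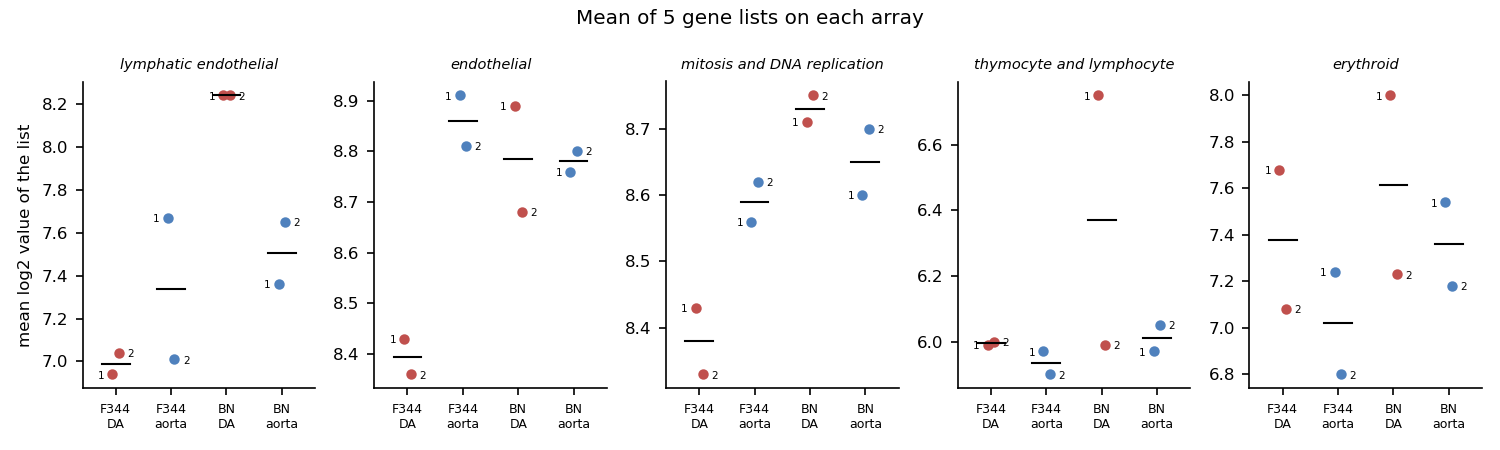
Points are the mean log2 value of a gene list on each array, labelled by replicate number, with DA in red, aorta in blue and a line at the mean of the 2 arrays; each panel has its own log2 axis, which does not start at 0. The BN DA arrays are highest for the lymphatic endothelial list at 8.24, the F344 DA arrays are lowest for the endothelial list at 8.43 and 8.36, and BN DA replicate 1 alone is high for the thymocyte list.

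Leaving out either BN DA array brought genes past the adjusted threshold. Without BN DA replicate 1, 47 of the genes described had an adjusted interaction p under 0.05 in limma, and without replicate 2 there were 32. Common to both sets were 11 genes, Cldn1, Glp1r, Grhl3, Itgbl1, Npr3, Nupr1, Postn, Ppargc1a, Scn3b, Sphkap and Tmem100, which is 23.4% of the first set and 34.4% of the second. Leaving out any of the other 6 arrays gave 0 such genes. The cardiac genes Actc1, Tnnt2, Gata4 and Tbx20 were called only without replicate 1, and the thymocyte genes Cd3g, Cd8b and Rag1 only without replicate 2. In each case the BN DA array that remained was the one with high values of these genes, so the calls rest on 1 array. The genes of this paragraph were selected by these calls after their values were seen.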

How the data were processed

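Gene expression was measured on 8 Affymetrix Rat Gene 1.0 ST arrays in 4 groups of 2. The deposited values are log2 probe set levels that the authors made with RMA, per the submitters' processing notes, and its version is not given in the sources used here. Values of 29215 probe sets ran from 1.07 to 14.2. Through the platform annotation 15310 had 1 gene symbol, 323 several and 13582 were unnamed here. The probe set with the highest mean stood for each of 527 genes with several. Scanner files were not used, so detection above background is unknown.

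In limma 3.58.1 (R 4.3.3), 1 linear model with 4 group means was fitted to all 8 arrays, with 4 residual degrees of freedom, empirical Bayes moderation and two-sided tests. P-values were adjusted by Benjamini-Hochberg over all 14506 genes, chemosensory genes included, and calls are at an adjusted p under 0.05. The number of arrays limits the precision.

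Genes named in the text were the up to 15 largest positive and negative interactions with an unadjusted p under 0.05, at least 2-fold, array differences that did not overlap and a group mean above the median of all values (7.01). Added to them were the 10 smallest interaction p-values, up to 3 members of each of 37 gene lists by interaction p, the 8 largest averaged differences each way, and a list of ductus genes. Further genes illustrate a list's calls or its exceptions and were picked after their values were seen. The members, lists and rules were chosen with earlier results of these data known. Lists are described by counts and medians, with no set test. Promoters came from RefSeq (GRCr8). Alternatives changed moderation, filter, normalization, centring, probe set summary, array weights, genes fitted and replicate block, and left out each array in turn.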

Additional observations from a re-analysis of the deposited data

How the results depend on the processing

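The interaction count of 0 at an adjusted p under 0.05 became 2 genes (Nupr1 and Ppargc1a) with the replicate block and ranged from 0 to 47 when 1 array was left out. The labels tie replicate numbers to no shared animal or batch, so the numbers were not taken as pairs. Replicate differences correlated at 0.55 between the BN groups and 0.27 between the F344 groups. Of 6 group pairs 5 were over 0.1, and the sixth was at -0.01. A source shared by replicate number cannot be told apart here, and the main fit leaves out any such effect. With the replicate block the count at an unadjusted p under 0.05 was 1514 instead of 1009, the F344 count 1936 instead of 1210 and the BN count 375 instead of 207. With array weights the F344 and BN counts were 2687 and 90.

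Leaving out 1 array at a time gave 552 to 1806 genes at an unadjusted interaction p under 0.05, 733 to 2162 instead of 1532 for the averaged difference, 291 to 1893 for F344 and 16 to 421 for BN. Ductus genes then numbered 436 to 627, their median ratio of BN to F344 was 0.671 to 0.858 against 0.727, and the share smaller in BN was 58.9% to 76.9% against 74.5%. Without dim genes 84.7% of the interactions at an unadjusted p under 0.05 were above 0, and 23.8% of the F344 calls were higher in the DA. Over the alternatives the interaction changed sign in 11 of the 125 named genes (Tfap2b ran from -1.07 to 0.17 and Clic6 from -0.51 to 0.10), and the median interaction changed sign in 30 of the 37 gene lists. Low values near background have no known detection limit here.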
